A study of Mus musculus with 366 samples.

Results

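The lysosome breaks down proteins, glycans and lipids that reach it by endocytosis, phagocytosis and autophagy, and a vacuolar proton pump keeps its interior acidic so that the acid hydrolases can work. In the arterial wall, macrophages take up modified lipoproteins and hydrolyse the cholesteryl esters in their lysosomes, which is the route by which they become foam cells. Many lysosomal genes carry an E-box, CACGTG, in their promoters, and this is the core of the element to which the transcription factor TFEB binds. Lysosome genes are also used by smooth muscle cells, fibroblasts and adipocytes, all of which are present around a mouse aorta.

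A list of 30 lysosome genes was followed through the aortic arrays of the Ath-HMDP. For each gene the probe set with the highest mean was taken among those annotated to that symbol alone, and 28 of the 30 genes had one among the 45141 probe sets. Neu1 and Cd63 were not analysed here. The 28 genes are 9 proteases or peptidases (Ctsa, Ctsb, Ctsc, Ctsd, Ctsf, Ctsh, Ctsl, Ctsz, Tpp1), 6 glycosidases (Hexa, Glb1, Gaa, Gusb, Manba, Man2b1), 3 proteins of sphingolipid breakdown (Psap, Gm2a, Asah1), 4 membrane proteins (Lamp1, Lamp2, Scarb2, Mcoln1), 5 subunits or accessory proteins of the proton pump (Atp6v0d1, Atp6v1h, Atp6v1a, Atp6v1b2, Atp6ap1) and the transcription factor Tfeb. On the array log2 scale their means ran between 4.13 for Tfeb and 11.66 for Ctsb, but the brightness of a probe set is not comparable between genes, so only differences of 1 gene between mice are used below.

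The samples were aortas of female mice, 1 array per mouse: 360 arrays of 95 strains with 2 to 8 mice each (median 4) and 6 arrays of strains with 1 mouse. Each strain is the F1 of an inbred or recombinant inbred strain and C57BL/6J mice that carried 2 human transgenes, APOE-Leiden and CETP, and every mouse, the C57BL/6J F1 included, carried both. The animals ate chow for 8 weeks and a Western diet for 16 weeks and were 24 weeks old. The strains comprise 36 of the BXD, 21 of the AXB/BXA, 9 of the CXB and 4 of the BXH recombinant inbred sets and 31 classical strains, and a strain name below stands for its F1. The progenitor F1 compared directly were A/J (n = 3), BALB/cJ (n = 4), C3H/HeJ (n = 8), DBA/2J (n = 5) and C57BL/6J (n = 6). An F1 mouse has a C57BL/6J copy of every autosomal gene, so these data show each other strain's alleles in the heterozygous state only, and the recombinant inbred strains within a set are related to each other. A strain mean is only as precise as the few arrays behind it allow.

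Each array was given a macrophage score, the mean log2 value of 25 macrophage markers such as Adgre1, Csf1r, C1qa and Cd14, none of which is among the 28 genes. It ran from 5.004 to 6.80 over the arrays, with a median of 5.74. The labelled tissue could be checked in the same way: the smooth muscle score ran from 5.78 to 10.13 (median 8.47), while adipocyte markers were bright on every array (11.4 to 12.21), although the peri-adventitial fat had been removed. Skeletal muscle markers ran from 3.07 to 12.51, and 29 arrays were high in hepatocyte markers. In a whole aorta, fewer cells of a type and less RNA per cell cannot be told apart, and the score is subject to the same limit. C57BL/6J replicate 1 stood apart from the other 5 arrays of its strain, with a macrophage score of 6.75 against 5.71 to 5.98 and a hepatocyte score of 3.42 against 2.67 to 3.08, so progenitor comparisons are given with and without it.

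The promoters of these genes were searched for E-boxes. RefSeq promoters (GRCm38.p6), from 250 bases before to 50 bases after the start of transcription, were at hand for 23 of the 28 genes, Ctsb, Ctsh, Asah1, Atp6v1h and Atp6v1b2 having none in the table. CACGTG, a palindrome and therefore the same on both strands, was found in 10 of the 23 genes, against 8.09% of all genes in the table, and the longer TCACGTGA, which contains it, in 5 of the 23, against 1.12%. The windows below show E-boxes in capitals with up to 12 bases on either side, cut at the start site, for 8 of the 10 genes. They are shown because they include both genes with a slope on the macrophage score past the threshold within strains (Glb1 and Ctsl) and genes without one (Lamp1, Mcoln1, Ctsd, Ctsf, Atp6v1a and Gaa). The most E-boxes, 4, were in Lamp1, and Mcoln1, Ctsd and Ctsa had 2 each. The window of Ctsd shows the E-box at -98, and its other one, at -245, is not shown. The E-boxes of Ctsa begin at -12 and 6 and that of Atp6v0d1 at -3, counted from the start site, and are not shown. A match describes the letters only.
Lamp1: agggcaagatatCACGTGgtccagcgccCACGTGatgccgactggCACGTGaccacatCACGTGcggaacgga
Mcoln1: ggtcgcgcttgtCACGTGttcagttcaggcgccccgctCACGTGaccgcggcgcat
Ctsd: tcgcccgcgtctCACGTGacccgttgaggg
Ctsf: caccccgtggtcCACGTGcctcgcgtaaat
Atp6v1a: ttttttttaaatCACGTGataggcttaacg
Gaa: tttctgtgcgatCACGTGtttgactctgac
Glb1: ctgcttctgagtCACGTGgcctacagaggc
Ctsl: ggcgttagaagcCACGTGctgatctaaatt
The Lamp1 window is chr8:13159088-13159160 on the plus strand and holds 4 E-boxes in 73 bases, ending at the base before the start site. The Mcoln1 window, chr8:3500436-3500491 on the plus strand, holds 2 E-boxes in 56 bases. The windows that show a single E-box are chr7:142387908-142387937 (minus strand) for Ctsd, chr19:4855074-4855103 (plus) for Ctsf, chr16:44139373-44139402 (minus) for Atp6v1a, chr11:119267811-119267840 (plus) for Gaa, chr9:114401018-114401047 (plus) for Glb1 and chr13:64370739-64370768 (minus) for Ctsl.

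The first question was whether lysosome genes followed macrophage content, both between strains and between mice of the same strain. Across the strain means (the 95 strains and the 6 with 1 array), 10 of the 28 genes rose with the macrophage score and none fell (limma regression, Benjamini-Hochberg adjusted over all probe sets, threshold 0.05), against 6.06% of all probe sets higher and 4.59% lower. Within strains, where genotype is shared and only differences between mice of a strain count, 12 rose and none fell, against 8.44% higher and 3.07% lower. After quantile normalization 11 genes rose and 2 fell within strains, Lamp1 (-0.07, limma adjusted p = 0.024) and Scarb2 (-0.10, limma adjusted p = 0.0344), and Scarb2 also passed on leaving out any 1 of 6 strains. The median slope of the 28 genes was 0.10 across and 0.05 within strains, in log2 units of the gene per log2 unit of the score, where the medians over all probe sets were 0.0085 and -0.00098. The rest did not pass: 18 across strains, with slopes between -0.09 and 0.11, and 16 within strains, with slopes between -0.09 and 0.07.

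**Figure D1:**
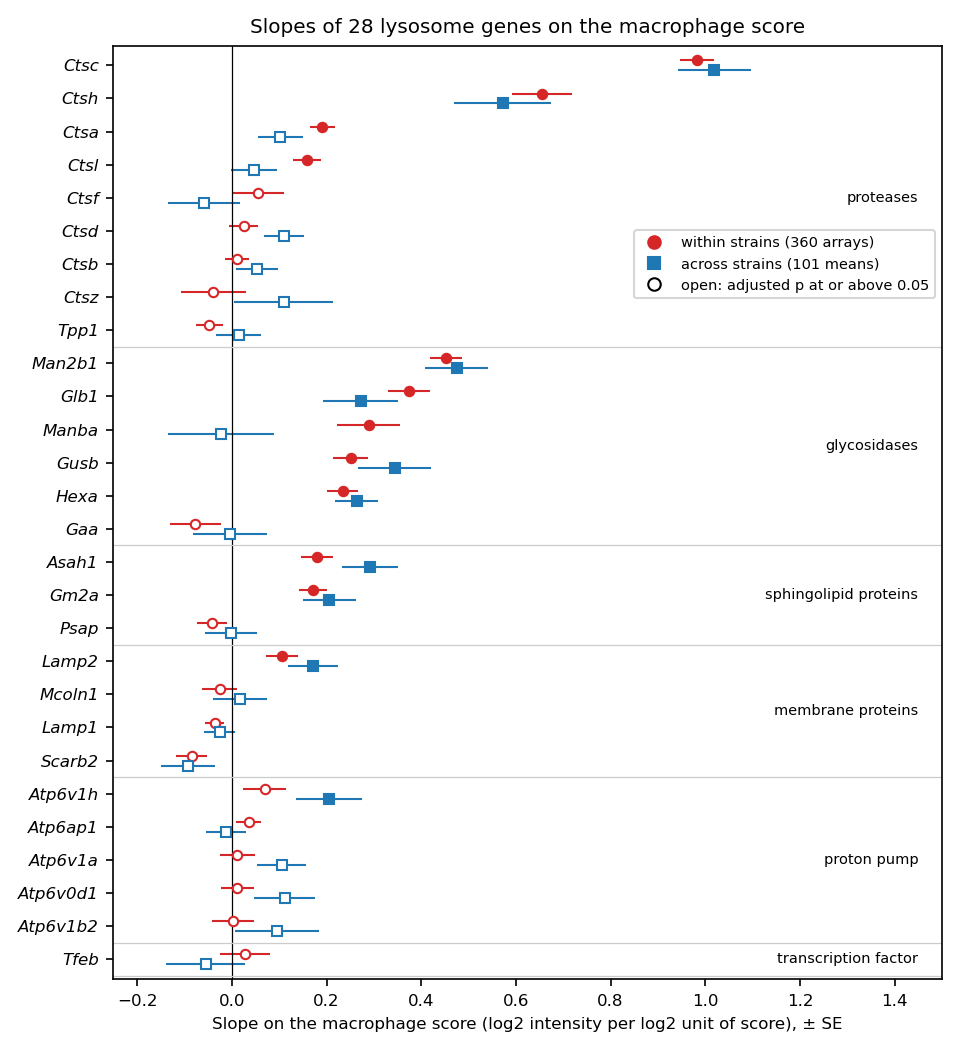
Slope of each of the 28 lysosome genes on the macrophage score, in log2 intensity per log2 unit of score with its standard error, within strains (red circles, 360 arrays) and across strains (blue squares, strain means), in groups by role; open symbols have an adjusted p at or above 0.05. Ctsc lies near 1 in both fits, followed by Ctsh and Man2b1, and then by Glb1 within and Gusb across strains. The proton pump genes lie near 0 within strains.

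Ctsc, which encodes the dipeptidyl peptidase that activates the serine proteases of leukocyte granules, followed the score more closely than any other of the 28 genes in both fits. Its log2 value ran from 7.31 to 9.73 over all arrays with a median of 8.23, and strain means lay between 7.68 in BXD75/RwwJ and 9.06 in BXA7/PgnJ among strains with at least 2 arrays. Its slope was 1.02 ± 0.0775 (SE) across strains (limma adjusted p = 1.41e-20) and 0.98 ± 0.0357 within strains (limma adjusted p = 3.36e-76). A slope of 1 is that of the average macrophage marker. The correlation across strains was 0.80 by Pearson's r and 0.79 by Spearman's rho. Both had the smallest p that 100000 permutations can give (permutation test, two-sided, p = 1.0e-05), and without the 2 strains farthest from the median score r was 0.78. Within strains r was 0.86 over 360 arrays.

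Among the other proteases, Ctsh, an aminopeptidase, had the next steepest slope, 0.57 across (limma adjusted p = 2.26e-05) and 0.66 within strains (limma adjusted p = 9.26e-19), and its correlation with the score was 0.48 across and 0.53 within strains. Ctsa, which protects lysosomal β-galactosidase and neuraminidase, and Ctsl, an endopeptidase, rose within strains by 0.19 and 0.16 per unit of score, while their slopes across strains, 0.10 and 0.05, did not pass (limma adjusted p = 0.149 and 0.58). Their further probe sets, both dim, had 0.03 and -0.11 within strains (limma adjusted p = 0.752 and 0.0556). With the mean over all probe sets of a gene, Ctsl did not pass within strains (0.03, limma adjusted p = 0.589). Ctsb, a cysteine protease, had a slope of 0.05 across and 0.01 within strains, Ctsd, the aspartic protease, 0.11 and 0.03, and neither passed in either fit. With only the C1q genes as the score, Ctsd did pass, with 0.10 across and 0.07 within strains (limma adjusted p = 0.0197 and 0.0309). Ctsf, Ctsz and Tpp1 did not pass either, with slopes between -0.06 and 0.11.

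Of the 6 glycosidases, 5 rose with the score within strains and 4 across strains, whereas 4 and 2 of the 9 proteases did. Man2b1, the lysosomal α-mannosidase, had slopes of 0.48 across (limma adjusted p = 2.72e-08) and 0.45 within strains (limma adjusted p = 3.15e-28), with r = 0.58 and 0.63. Glb1, β-galactosidase, had slopes of 0.27 and 0.37, Gusb, β-glucuronidase, 0.34 and 0.25, and Hexa, the α subunit of β-hexosaminidase, 0.26 and 0.23, and all of these passed in both fits. Manba, β-mannosidase, rose by 0.29 within strains (limma adjusted p = 0.00039), whereas its slope across strains was -0.02 ± 0.112. Gaa, which degrades glycogen, did not pass in either fit (-0.0044 ± 0.078 across, -0.08 ± 0.0534 within).

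**Figure D2:**
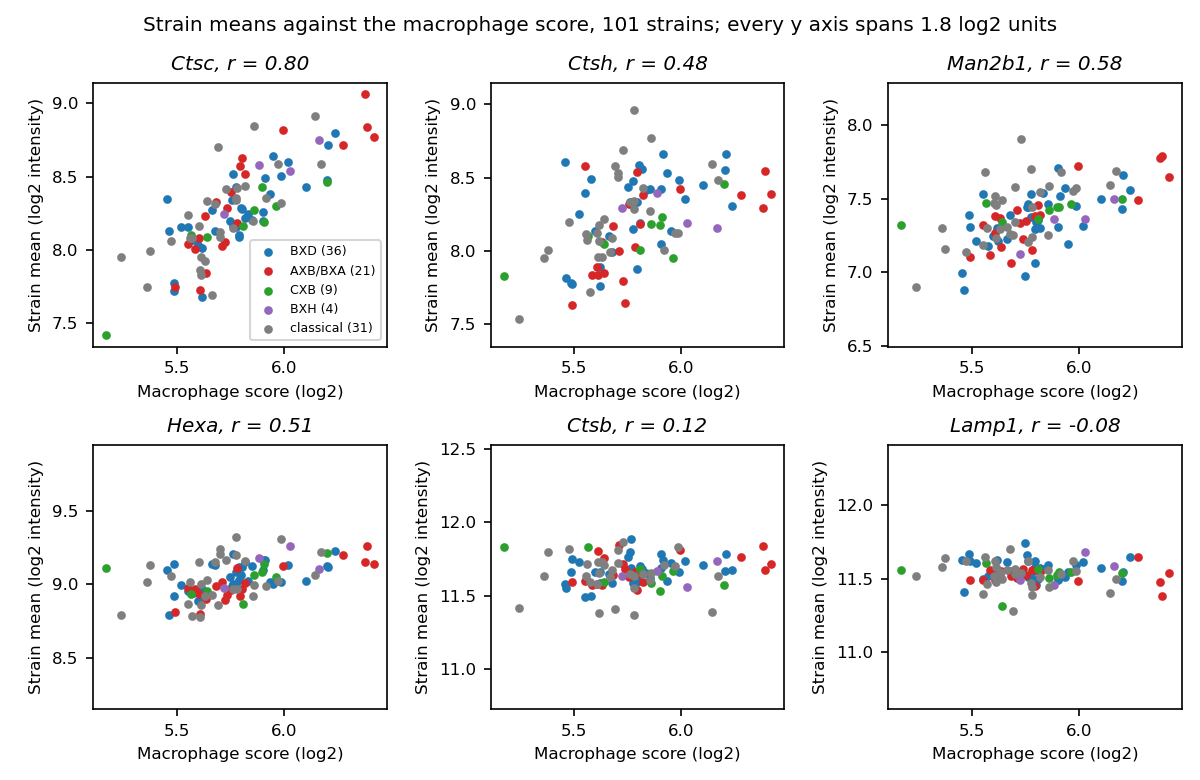
Strain means of 6 lysosome genes (log2 intensity) against the strain-mean macrophage score (log2), 1 point per strain, coloured by strain set; every vertical axis spans the same number of log2 units. Ctsc rises steeply (r = 0.80), Man2b1, Hexa and Ctsh less so (r = 0.58, 0.51 and 0.48), and the bright genes Ctsb and Lamp1 show almost no trend (r = 0.12 and -0.08).

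Of the sphingolipid genes, Asah1, acid ceramidase, and Gm2a, the activator protein for GM2 ganglioside breakdown, rose in both fits. The slopes were 0.29 across and 0.18 within strains for Asah1 and 0.21 and 0.17 for Gm2a. Psap, the precursor of the saposins, had slopes of -0.0016 and -0.04 and did not pass. Among the membrane proteins only Lamp2, which is needed for chaperone-mediated autophagy, passed, with 0.17 across (limma adjusted p = 0.0255) and 0.11 within strains (limma adjusted p = 0.024). The call across strains was lost without AXB10/PgnJ, and that within strains without BXD5/TyJ, BXD70/RwwJ or CXB12/HiAJ and after quantile normalization (limma adjusted p = 0.0622). Lamp1, the most abundant lysosomal membrane glycoprotein together with Lamp2, had -0.03 and -0.04, Mcoln1, a calcium channel, 0.02 and -0.03, and Scarb2, the carrier of glucocerebrosidase to the lysosome, -0.09 and -0.09 (limma adjusted p = 0.307 and 0.0647).

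None of the 5 proton pump genes passed within strains, where their slopes lay between 0.0022 and 0.07. With the C1q genes as the score, Atp6v1h did pass within strains (0.10, limma adjusted p = 0.0412). With a foam cell score, Atp6ap1 did (0.11, limma adjusted p = 0.00758). Atp6v1h, the H subunit of the pump's cytosolic sector, passed across strains with a slope of 0.20 (limma adjusted p = 0.0433), and this call was lost on leaving out any 1 of 17 strains. Tfeb, the transcription factor, did not pass in either fit (-0.06 across, 0.03 within), and at a mean of 4.13 its probe set was the dimmest of the 28. The slope across strains differed from the slope within strains for none of the 28 genes (limma with strain as a random block, adjusted threshold 0.05), against 0.0731% of all probe sets, while 3 genes had an unadjusted p under 0.05: Gusb (difference 0.18), Asah1 (0.14) and Manba (-0.26). The fit across strains gives each strain the same weight, and on simulated data it made more calls among unchanged probe sets than its threshold allows, which is why a weighted fit was added. When strains were weighted by their number of arrays, 8 genes rose and none fell, against 4.67% of all probe sets higher and 3.89% lower, with Lamp2 (limma adjusted p = 0.0557) and Atp6v1h (limma adjusted p = 0.0946) no longer past the threshold.

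The macrophage score was not independent of the other cell types. Its correlation with the B and T cell score was 0.47 across strains and 0.51 within strains, with the fibroblast score 0.28 and 0.32 and with the smooth muscle score -0.38 and -0.15. When the scores of 6 other lists (smooth muscle, endothelial, fibroblast, adipocyte, B and T cell and hepatocyte markers) were added to the fit, 9 genes still rose and none fell within strains, against 3.25% of all probe sets higher and 0.454% lower: Ctsa, Ctsc, Ctsh, Hexa, Glb1, Gusb, Man2b1, Asah1 and Lamp2. The slope of Ctsc was then 0.90, that of Man2b1 0.36 and that of Ctsh 0.32, while Ctsl, Manba and Gm2a no longer passed (0.08, 0.22 and 0.08). Across strains 5 genes rose and none fell in that fit, against 1.02% of all probe sets higher and 0.12% lower: Ctsc, Hexa, Gusb, Man2b1 and Asah1.

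Many of the genes without a slope on the macrophage score past the threshold had one on adipocyte markers. Within strains, 15 of the 28 genes rose with the adipocyte score and 5 fell, against 25.5% of all probe sets higher and 17.6% lower. Of the 16 genes not past the threshold with the macrophage score, 12 rose and 2 fell with the adipocyte score, while of the 12 that were past it 3 rose and 3 fell. With the brown adipocyte score, built from markers such as Ucp1 and Cidea, 15 rose and 5 fell, against 20.9% higher and 16.8% lower, and 14 of the 15 that rose were genes not past the threshold with the macrophage score. The adipocyte and brown adipocyte scores had an SD within strains of only 0.0931 and 0.134, and the slopes on them are per whole log2 unit.

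Ctsz, a carboxypeptidase, had the steepest slope of the 28 genes on both adipocyte scores within strains, 1.69 ± 0.17 on the adipocyte and 1.73 ± 0.0897 on the brown adipocyte score, and its slopes across strains were 2.40 and 1.24 (all past the threshold). Ctsf followed the adipocyte score with a slope of 1.22 and Atp6v1h, Atp6v1a and Mcoln1 with 1.09, 0.72 and 0.64. In the opposite direction lay Ctsc (-0.98), Ctsh (-0.95), Tfeb (-0.88) and Manba (-0.49), all of which passed. With the fibroblast score, 10 of the 12 genes that rose with the macrophage score also rose and none fell, whereas none of the other 16 rose and 8 fell, against 15.4% of all probe sets higher and 15.2% lower. Ctsh had a slope of 1.07 on the fibroblast score and 0.66 on the macrophage score, which are on different scales. Per within-strain SD of each score, Ctsh rose by 0.244 with the fibroblast and by 0.176 with the macrophage score. Manba (0.139 and 0.0774), Ctsl (0.0658 and 0.0426) and Asah1 (0.0604 and 0.0481) also rose more with the fibroblast score. The rest of the 12 rose less with it, as did Ctsc (0.132 and 0.263).

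Skeletal muscle markers varied more than those of any other cell type listed, with an SD within strains of 2.99. Within strains, 19 of the 28 genes fell with the skeletal muscle score and 2, Gaa and Tfeb, rose, against 18.7% of all probe sets lower and 8.58% higher. The endothelial score gave 12 genes that rose, led by Manba (0.40) and Psap (0.25), and 3 that fell, against 21.5% higher and 20% lower. The smooth muscle score gave 7 in each direction, against 23.9% higher and 34.7% lower, with Ctsh (0.16) and Manba (0.16) the highest and Ctsz (-0.12) the lowest. The skeletal muscle and brown adipocyte scores were not among the 6 added above. With both added as well, 9 genes rose with the macrophage score within strains and none fell, against 3.29% of all probe sets higher and 0.538% lower.

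**Figure D3:**
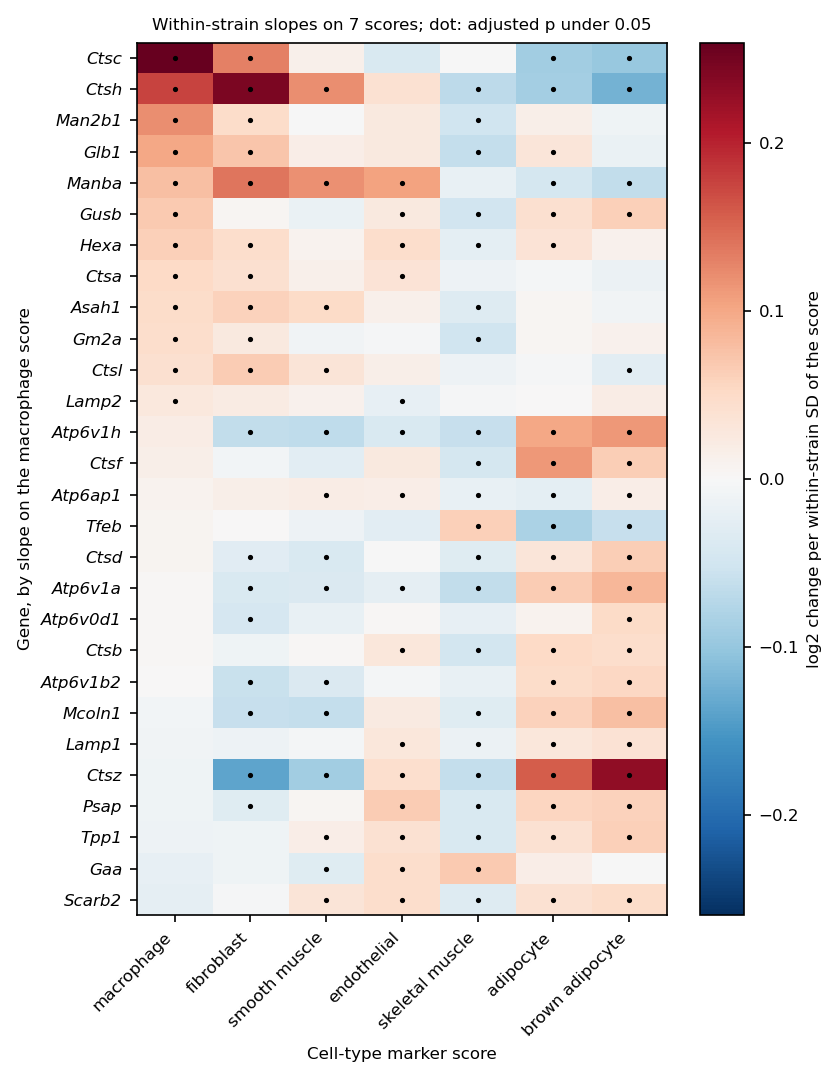
Within-strain slopes of the 28 genes on 7 marker scores, as the log2 change per within-strain SD of each score (red higher, blue lower), with genes in the order of their slope on the macrophage score; a dot marks an adjusted p under 0.05. The genes at the top, led by Ctsc, are high on the macrophage and fibroblast scores, and most of those at the bottom are high on the adipocyte and brown adipocyte scores, where Ctsz has the deepest colour.

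Pairs of the 28 genes were correlated as a description over the strain means, which share arrays and strain relatedness. Pairs of other probe sets were not, so the values cannot say whether lysosome genes vary together more than other genes. Of 378 pairs of genes, 303 had a positive correlation, with a median r of 0.24 and a range of -0.42 to 0.80. The proton pump genes were the most alike, with a median r of 0.60 over their 10 pairs. Atp6v1h and Atp6v1a, both of the cytosolic sector, had r = 0.80 and Atp6v0d1 and Atp6v1b2 had r = 0.74, as did Ctsb and Psap, while Ctsl and Tfeb had the lowest value, -0.42. Pairs within the 12 genes that rose with the score within strains had a median r of 0.29, pairs within the other 16 a median of 0.36, and pairs between both groups a median of 0.12.

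All 28 genes differed among the 95 strains with at least 2 arrays (limma moderated F test, adjusted over all probe sets), against 77% of all probe sets. The intraclass correlation, the share of variance among strains, had a median of 34.1% over the 28 genes and 17.9% over all probe sets, and it ran from 19.8% for Tfeb to 51.2% for Gusb. All 28 probe sets had a mean above the median of all probe sets, so the values over all probe sets include many dimmer ones. A background of equal brightness was not used. With the macrophage score in the model all 28 still passed, against 76.7%, and with the macrophage, adipocyte, smooth muscle and skeletal muscle scores all 28 again passed, against 72.3%. No strain differed from its neighbour in the order of strain means by more than 2 standard errors for any of the 28 genes. Gaps between neighbours are small when 95 strains are put in order, so this cannot tell a gradual order from groups of strains.

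The 8 genes with the highest intraclass correlation were Gusb (51.2%), Gm2a (46.4%), Atp6v1b2 (46.1%), Asah1 (43.7%), Atp6v0d1 (41.1%), Scarb2 (40.3%), Ctsc (38.7%) and Ctsb (38%). Gusb was lowest in A/J, with 6.53, 6.24 and 6.25 on its 3 arrays, and highest in BXD9/TyJ, with 7.55, 7.39, 7.12 and 7.41, a 2.04-fold range of strain means (6.34 and 7.37). The AXB/BXA strains, which descend from A/J and C57BL/6J, had a lower median of Gusb (6.70) than the BXD (7.0), CXB (6.87), BXH (7.08) and classical strains (6.91), a difference that was not tested. Asah1 was lowest in A/J as well, with 8.03, 7.89 and 7.68, and highest in AXB10/PgnJ, with 8.47 and 8.91.

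Gm2a ran from a strain mean of 8.63 in C57BLKS/J (8.62, 8.66, 8.51 and 8.71) to 9.40 in BXA7/PgnJ (9.44, 9.39, 9.40, 9.47 and 9.28), with no overlap of the arrays. The 2 proton pump genes were both highest in BXD48/RwwJ, at 8.91 for Atp6v1b2 and 9.06 for Atp6v0d1, and were lowest in BTBR T<+> tf/J (8.00) and BXD18/TyJ (8.33). Scarb2 lay between 9.89 in SJL/J (9.74, 9.71, 10.07 and 10.01) and 10.69 in BALB/cByJ (10.89, 10.47 and 10.69). Ctsb was also lowest in SJL/J, where its 4 arrays spread from 11.04 to 11.63, and highest in BXD64/RwwJ (11.89), a 1.43-fold range. Outside these 8, Manba had the widest range of strain means of the 28 genes, 4.73 in AXB2/PgnJ and 6.23 in C57L/J, or 2.82-fold.

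**Figure D4:**
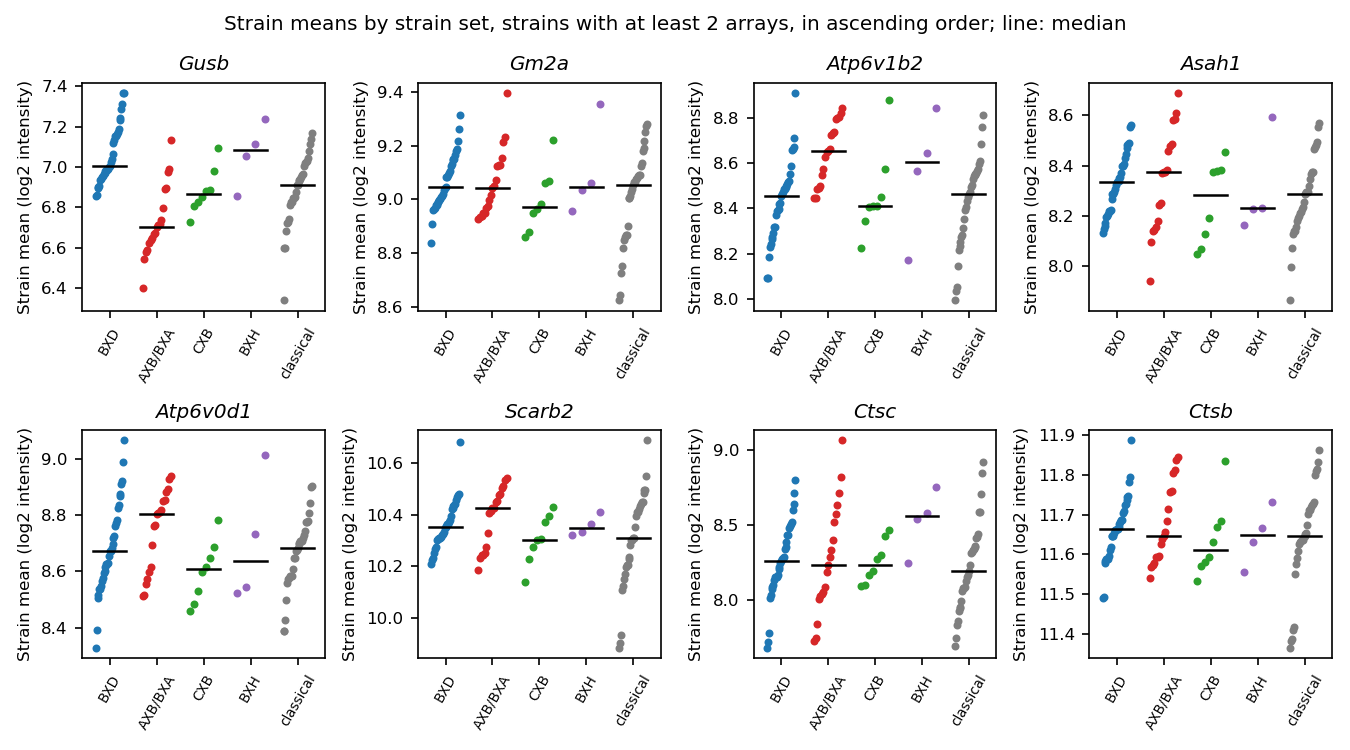
Strain means (log2 intensity) of the 8 genes with the highest intraclass correlation, for the 95 strains with at least 2 arrays, in ascending order within each strain set; the black line is the set's median. Gusb in the AXB/BXA strains has its median at 6.70, below the medians of the other 4 sets, and no set stands apart for Ctsb.

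C57BL/6J, the parent shared by all F1 strains, lay near the top of the order for some of the genes. How often it does so over all probe sets was not computed, so the ranks say nothing particular to lysosome genes. Of 95 strains counted from the lowest, it ranked 94 for Hexa, 91 for Glb1, 90 for Ctsb, Asah1 and Atp6v1b2, 88 for Ctsf, 87 for Manba and 85 for Gm2a. It ranked 11 for Scarb2 and 15 for Ctsa, at the other end, and also lay in the lower part for Ctsl (18), Ctsz (23), Ctsh (34) and Atp6ap1 (38). Without C57BL/6J replicate 1 the ranks of the first 8 genes lay between 81 (Ctsf) and 93 (Hexa and Ctsb), and those of Scarb2 and Ctsa were 13 and 11. The mean macrophage score of A/J was the lowest of the 95 strains (5.24), while that of C57BL/6J, 5.98, ranked 81 and, without replicate 1, at 5.83, ranked 66. Each of the other 4 progenitor F1 was compared with C57BL/6J, and since these comparisons share the same 6 C57BL/6J arrays, they are not independent of each other.

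A/J aortas had lower expression of 8 of the 28 genes than C57BL/6J aortas and higher expression of none (limma, adjusted over all probe sets), against 3.61% of all probe sets lower and 1.33% higher. The median difference was -0.31 over the 28 genes, 25 of which were negative, and -0.01 over all probe sets. Asah1 had 8.03, 7.89 and 7.68 in A/J and 8.40, 8.57 and 8.82 as the lowest, median and highest of 6 C57BL/6J arrays, so that the groups did not overlap. Its difference was -0.70 ± 0.108 (SE; limma adjusted p = 2.42e-07), or 0.614-fold. Gusb had 6.53, 6.24 and 6.25 in A/J against 6.79 to 7.39 (median 6.998) in C57BL/6J, a difference of -0.69 ± 0.123 (limma adjusted p = 1.59e-05).

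Man2b1 was lower in A/J by 0.68 (limma adjusted p = 0.000182), Hexa by 0.51 (limma adjusted p = 0.000375) and Manba by 0.70 (limma adjusted p = 0.0283). The other genes lower in A/J were Atp6v1b2 (-0.46), Ctsb (-0.41) and Gm2a (-0.39). The further probe sets of Ctsb (-0.39, -0.38 and -0.38) and Gm2a (-0.45 and -0.10) did not pass for A/J (limma adjusted p = 0.0599 or more). That of Gusb did pass (-0.53, limma adjusted p = 0.0251). The macrophage score was also lower in A/J, at 5.16 to 5.34, than in C57BL/6J, at 5.71 to 6.75. With the score in the model, 5 of the 8 genes remained lower (Asah1, Gusb, Ctsb, Atp6v1b2 and Hexa), and Ctsc was higher (0.37), against 2.23% of all probe sets lower and 0.924% higher. The differences of Man2b1, Manba and Gm2a, -0.34, -0.48 and -0.27, no longer passed. Without A/J replicate 2, 5 genes passed, and Manba, Gm2a and Atp6v1b2 did not (limma adjusted p = 0.0934, 0.0814 and 0.228). Manba did not pass without A/J replicate 1 or 3 either (limma adjusted p = 0.0914 and 0.0966), nor Atp6v1b2 without A/J replicate 3 (limma adjusted p = 0.103). Without C57BL/6J replicate 1, Manba and Atp6v1b2 did not pass (limma adjusted p = 0.0585 and 0.0532).

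BALB/cJ aortas had lower expression of 7 genes than C57BL/6J aortas and higher expression of none, against 4.67% of all probe sets lower and 1.63% higher. The largest difference was that of Atp6v1b2, the B2 subunit of the proton pump, with 8.02, 8.13, 8.11 and 7.96 in BALB/cJ and 8.68 to 8.90 (median 8.82) in C57BL/6J. The difference was -0.76 ± 0.124 (limma adjusted p = 1.54e-06), or 0.592-fold, and did not change with the macrophage score in the model (-0.76). The pump genes Atp6v1a (-0.34) and Atp6v0d1 (-0.31) were lower too, as were Asah1 (-0.37), Gm2a (-0.37), Lamp2 (-0.30) and Ctsb (-0.25). The further probe sets of Ctsb, Gm2a, Atp6v1a and Lamp2 were also lower but did not pass for BALB/cJ (limma adjusted p = 0.052 or more). With the score in the model, 6 of the 7 remained lower, Lamp2 being the exception, and Ctsa was higher (0.28), against 4.49% of all probe sets lower and 2.2% higher. Only 2 of the 7, Atp6v1b2 and Gm2a, passed without BALB/cJ replicate 2, and Atp6v0d1 and Lamp2 did not pass without C57BL/6J replicate 1 either (limma adjusted p = 0.105 and 0.0898). The call of Atp6v0d1 was lost on leaving out any 1 of the BALB/cJ arrays or C57BL/6J replicate 2 or 6. That of Lamp2 was also lost without BALB/cJ replicate 3 or 4 or C57BL/6J replicate 2 or 3. That of Atp6v1a was also lost without BALB/cJ replicate 3 or C57BL/6J replicate 2 or 4.

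C3H/HeJ aortas differed from C57BL/6J aortas in 5 of the 28 genes. Lower were Gm2a (-0.36), Man2b1 (-0.32) and Asah1 (-0.28), against 5% of all probe sets, and higher were Scarb2 (0.23) and Lamp1 (0.15), against 3.91%. With the macrophage score in the model only Gm2a of these 5 still passed (-0.30), against 4.39% of all probe sets lower. The others had an adjusted p by limma between 0.0521 (Lamp1) and 0.191 (Man2b1). Then 2 other genes were higher, Ctsa (0.23) and Ctsc (0.30), against 3.61% of all probe sets. Gm2a had a lowest, median and highest value of 8.73, 8.84 and 9.05 on 8 C3H/HeJ arrays and of 9.10, 9.21 and 9.33 on 6 C57BL/6J arrays, with no overlap (limma adjusted p = 0.000126). It was the only one of the 5 that passed without C57BL/6J replicate 1, and without all arrays high in hepatocyte markers its difference was -0.33 (limma adjusted p = 0.00085). A further probe set of Gm2a also passed for C3H/HeJ (-0.46, limma adjusted p = 0.0224). Another, dim one did not (-0.03), nor did that of Scarb2 (0.05). In DBA/2J, Glb1 (-0.43), Lamp2 (-0.42) and Hexa (-0.32) were lower than in C57BL/6J, against 2.29% of all probe sets, and none was higher, against 1.4%. Lamp2 had 9.69, 9.72, 9.60, 9.18 and 9.51 in DBA/2J against 9.85 to 10.07 (median 9.94) in C57BL/6J, with no overlap (limma adjusted p = 0.000795), and it alone passed without the 3 arrays high in hepatocyte markers (DBA/2J replicates 1 and 2 and C57BL/6J replicate 1). All 3 of these differences still passed with the macrophage score in the model. The call of Glb1 was lost on leaving out any 1 of the DBA/2J arrays or C57BL/6J replicate 1, 5 or 6. That of Hexa was lost without DBA/2J replicate 3, 4 or 5 or C57BL/6J replicate 1. The further probe sets of Lamp2 were lower in DBA/2J but did not pass (-0.23 and -0.32, limma adjusted p = 0.206 and 0.295). The former did pass for C3H/HeJ (-0.27, limma adjusted p = 0.0279), where the Lamp2 probe set used did not. Without the arrays high in hepatocyte markers, of which C57BL/6J replicate 1 is the only one in the other contrasts, Manba and Atp6v1b2 no longer passed for A/J (limma adjusted p = 0.0621 and 0.0593), nor Lamp2 and Atp6v0d1 for BALB/cJ (limma adjusted p = 0.0856 and 0.106).

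The progenitor groups also differed in their cell-type scores. The mean smooth muscle score was 8.49 in A/J, 8.84 in BALB/cJ, 8.72 in C3H/HeJ, 8.06 in DBA/2J and 7.13 in C57BL/6J, and the mean skeletal muscle score was 9.43, 9.16, 6.51 and 6.52 in the same order of strains and 8.54 in C57BL/6J. The part of these scores in the strain differences was not tested. Mismatches between the array probes and the alleles of each strain can also lower a probe set's value in 1 strain, and they were not analysed here.

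**Figure D5:**
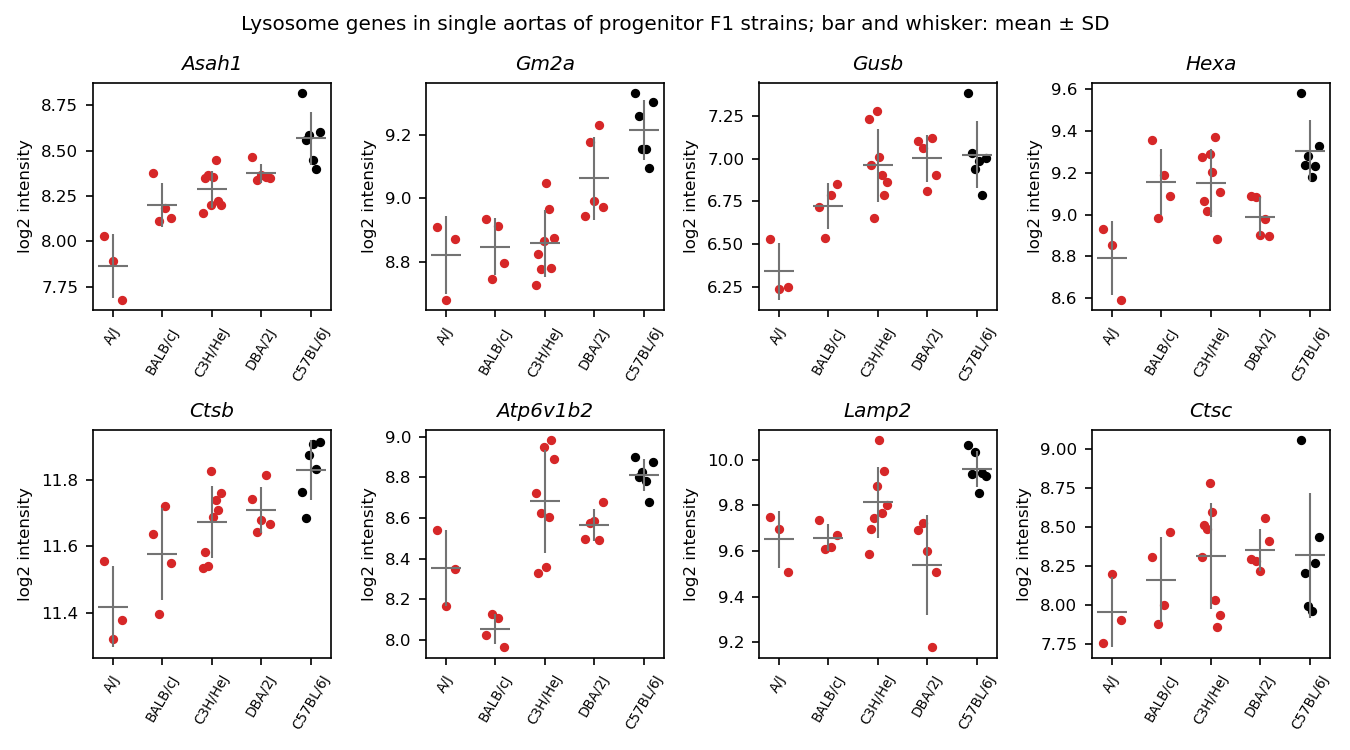
Log2 intensity of 8 lysosome genes in single aortas of the progenitor F1 strains (red points) and of C57BL/6J (black points), 1 point per mouse, with horizontal bar and whisker for the mean ± SD; n = 3, 4, 8, 5 and 6 from left to right. For Asah1, Gusb, Hexa and Ctsb the A/J points lie below all C57BL/6J points, and for Atp6v1b2 the BALB/cJ points lie lowest.

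The rest of the lysosome was followed through a second list. Of 82 further lysosomal genes listed, 69 were measured, and of these 10 rose with the macrophage score across strains and none fell, against 6.06% of all probe sets higher and 4.59% lower, while 17 rose and 2 fell within strains, against 8.44% higher and 3.07% lower. With the 6 other scores added, 9 rose and none fell within strains and 5 rose across strains. The steepest slopes within strains were those of Ctss, the cathepsin of antigen-presenting cells (1.52), Cd68 (1.24) and Laptm5 (1.2), membrane proteins of leukocyte lysosomes, Gpnmb (0.51), a glycoprotein of macrophages and melanosomes, and Ctsk (0.40), the collagen-degrading cathepsin. With the 6 other scores added, Ctss (1.27), Cd68 (1.18) and Laptm5 (0.81) still passed, and Gpnmb (0.35, limma adjusted p = 0.196) and Ctsk (0.06, limma adjusted p = 0.697) did not. The 2 genes that fell, a share near that over all probe sets, were Sort1, a sorting receptor (-0.15), and Atp6v0a2, a proton pump subunit (-0.13), and neither passed with the added scores. Among the 10 further proton pump genes 1 rose and 1 fell within strains, and among the 14 further glycosidases and sulfatases 6 rose. No test between the lists was made.

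Of the 12 genes that rose with the macrophage score within strains, 10 had a promoter in the table and 3 of those an E-box. Of the 16 that did not, 13 had a promoter and 7 an E-box, among them the pump genes Atp6v1a and Atp6v0d1 and the membrane proteins Lamp1 and Mcoln1 shown above. The numbers are small, and no test was made of them.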

How the data were processed

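The authors extracted total RNA of the aorta between the arch and the middle of the abdomen and hybridized it to Affymetrix arrays. The labels name these HT_MG-430A and the paper HT-MG_430 PM, and the probe set names carry PM. According to the labels, the authors used GCOS and RMA (no version given), so the deposited values are log2 intensities of 45141 probe sets, which ran from 1.63 to 13.7. Array medians lay between 3.17 and 3.40. No 2 arrays were identical (highest correlation 0.9962). The labels give no batch or date.

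Slopes, strain differences and progenitor contrasts were fitted with limma 3.58.1 in R 4.3.3 on all probe sets, with Benjamini-Hochberg adjustment and a threshold of 0.05. A score is the mean log2 value of a marker list, with the highest-mean probe set per gene. Slopes across strains used the unweighted strain means, 1 per strain, slopes within strains 360 arrays with strain as a fixed term, and contrasts all arrays. Correlations and figures used Python 3.11.15 and scipy 1.17.1. The scripts were tested on simulated data.

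All 30 listed genes were to be named, with strain levels for the 8 highest intraclass correlations and for genes past a contrast's threshold, and up to 5 further lysosome genes at either end. The members and lists were chosen with earlier results of these data known. Lesion areas were not used.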

Additional observations from a re-analysis of the deposited data

Results flagged for a closer look

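Of 46 groups of 4 to 10 arrays checked for a sample that stood far from the others, 4 held one by Dixon's test, where chance gives about 1 in 20. In BXD64/RwwJ, the strain with the highest Ctsb, replicate 4 had 11.73 against 11.92 to 11.95 on the other 3 arrays (gap over range 0.83). In BXA7/PgnJ, the strain with the highest Ctsc, replicate 5 had 8.74 against 9.11 to 9.18 on the other 4 (0.85), and its macrophage score was 6.09. In C57BL/6J, replicate 1 had Hexa at 9.58 against 9.18 to 9.33 on the other 5 arrays (0.63) and a macrophage score of 6.75 against 5.71 to 5.98 (0.74), and this array was also high in hepatocyte markers. All 4 progenitor contrasts use this array, and the counts of genes that pass without it are given with the processing alternatives. No cause was tested.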

How the results depend on the processing

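The counts among the 28 genes kept to within 1.5 times under the other alternatives, with these exceptions. Across strains, 10 genes rose in the fit reported, 5 with the scores of 6 other cell types added, 6 with 8 added and 6 in strains with at least 3 arrays. Without arrays high in hepatocyte markers 1 gene passed for C3H/HeJ and 1 for DBA/2J, and 1 for DBA/2J after quantile normalization. With only the 2 strains compared in the fit, 4 passed for BALB/cJ and 3 for C3H/HeJ, and 3 for C3H/HeJ with the macrophage score. Of the 3 genes that passed for C3H/HeJ with that score, only Gm2a was among the 5 reported. Without C57BL/6J replicate 1, 6 genes passed for A/J and 5 for BALB/cJ. Leaving out 1 array in turn gave 5 to 8 genes for A/J (fewest without A/J replicate 2), 2 to 8 for BALB/cJ (2 without BALB/cJ replicate 2, 4 without BALB/cJ replicate 4 or C57BL/6J replicate 2), 1 to 5 for C3H/HeJ (1 without C57BL/6J replicate 1, 2 without C57BL/6J replicate 2, 3 without C3H/HeJ replicate 4, 7 or 8) and 1 to 3 for DBA/2J (1 without DBA/2J replicate 3, 4 or 5 or C57BL/6J replicate 1). Leaving out 1 strain in turn gave 8 to 11 across strains, 11 to 13 within strains (the counts of 13 hold 12 that rose and Scarb2, which fell) and 28 for the F test. The cause was not tested. Among the 69 further lysosome genes, 9 rose and none fell within strains with 6 scores added, where 17 and 2 did without them, and 5 rose across strains, where 10 did. The fits with 8 scores, with weighted strain means, with 4 scores among strains and without arrays high in B and T cell markers, the other cell-type scores and the ranks without C57BL/6J replicate 1 were chosen after seeing the data. Of 21 further probe sets of 14 genes, 17 had the same call within strains as the one used and 16 the same sign. Which genes passed changed with the markers in the score. With the C1q genes, Ctsd was added and Lamp2 lost across strains. Within strains Ctsd and Atp6v1h were added and Manba was lost (limma adjusted p = 0.0611). With a foam cell score, Ctsa was added and Gm2a, Lamp2 and Atp6v1h were lost across strains. Within strains Ctsd and Atp6ap1 were added and Manba, Asah1 and Lamp2 were lost (limma adjusted p = 0.311, 0.197 and 0.487). No paired analysis was possible because the labels give mouse numbers only, and no number is shared between strains.

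The slopes whose sign turned were, apart from Gm2a, those of genes not past the threshold in the fit concerned. With the C1q genes as the score they were, across strains, Tpp1 -0.00060 and Gaa 0.0042, and within strains Ctsz 0.028, Mcoln1 0.0027 and Tfeb -0.014. With a foam cell score they were Gaa 0.087 and Atp6ap1 0.010 across strains, and Ctsb -0.020, Ctsf -0.044, Ctsz 0.033 and Mcoln1 0.053 within strains. With 6 other scores added they were Ctsf 0.015, Manba 0.16, Psap 0.090, Gm2a -0.042, Lamp1 0.045, Scarb2 0.065 and Atp6ap1 0.068 across, and Ctsz 0.11 and Mcoln1 0.0095 within strains. With 8 added they were Ctsf 0.027, Manba 0.17, Psap 0.082, Gm2a -0.039, Lamp1 0.038, Scarb2 0.053 and Atp6ap1 0.058 across, and Ctsz 0.16 and Mcoln1 0.012 within strains. Across strains alone, the strain set as a covariate gave Manba 0.031, Psap 0.0045 and Mcoln1 -0.014, and the mouse number gave Gaa 0.0039, Manba 0.022, Psap 0.036 and Atp6ap1 0.0096. Strains with at least 3 arrays gave Ctsz -0.078, Tpp1 -0.0016, Gaa 0.013 and Atp6v1b2 -0.021, medians in place of means Manba 0.027 and Psap 0.016, weighted means Gaa 0.011, and the biweight midcorrelation Tpp1 -0.015, Gaa 0.019 and Manba 0.0042. Without arrays high in hepatocyte markers, Atp6v0d1 had -0.0094 and Atp6v1b2 -0.0050 within strains. Without those high in B and T cell markers, Tpp1 had -0.0079, Manba 0.0015 and Tfeb 0.036 across, and Atp6v0d1 -0.0012 and Atp6v1b2 -0.0090 within strains. The mean over all probe sets of a gene gave Tpp1 -0.023 and Psap 0.0064 across, and Mcoln1 0.013 and Atp6v1a -0.0049 within strains, and quantile normalization gave Manba 0.013 across, and Ctsb -0.020, Atp6v1b2 -0.0096 and Tfeb -0.0057 within strains. Leaving out 1 strain in turn gave, across strains, -0.0016 to 0.027 for Tpp1, -0.012 to 0.031 for Mcoln1, -0.027 to 0.017 for Gaa, -0.059 to 0.0079 for Manba and -0.019 to 0.015 for Psap, and within strains -0.0059 to 0.023 for Ctsb, -0.0030 to 0.032 for Ctsd, -0.00098 to 0.023 for Atp6v0d1, -0.0035 to 0.025 for Atp6v1a and -0.019 to 0.014 for Atp6v1b2.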
